A study of Mus musculus with 24 samples.

Results

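The mouse Hox genes were followed in 10T1/2 cells, an embryonic fibroblast line of the C3H strain that the muscle regulator MyoD can convert to muscle. All annotated genes named Hox with a cluster letter a to d and a number were taken, without regard to their values, which gave 39 of the 55450 genes of the annotation. Wild type cells and 2 LncMyoD-KO clones (LncMyoD is a noncoding RNA encoded beside Myod1) were each left untreated, infected with MyoD adenovirus, transfected with a LncMyoD plasmid, or given both agents. Each of the 12 groups had 2 libraries of polyadenylated RNA, 24 in all. Cells grew in 10% fetal bovine serum and were moved to 2% horse serum after MyoD-induced conversion, and the labels do not say whether the groups without MyoD were also moved. Each knockout line is 1 clone, so the knockout and the clone cannot be told apart. Whether the libraries of a group are separate cultures is not stated, and p-values cover library-to-library spread, which may be technical.

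Hox genes encode homeodomain transcription factors and lie in 4 clusters, HoxA to HoxD, in which genes at the 3′ end (low paralog numbers) act in anterior regions of the embryo and genes at the 5′ end (high numbers) in posterior regions and distal limbs. Fibroblasts are known to keep a Hox pattern that reflects the body site they came from. Hox proteins bind DNA together with TALE homeodomain partners of the Pbx and Meis families, and Polycomb and trithorax complexes are known to hold Hox clusters silent or active.

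Values are TPM, a length-corrected share of a library's RNA, summed per gene and rescaled to one common total without ribosomal and mitochondrial RNA (rescaled TPM). Ribosomal RNA took 59.0 to 69.3% of the deposited TPM of wild type libraries. The range was 46.8 to 72.0% for clone 1 and 2.71 to 8.50% for clone 2. Aligned depth was 2.43 to 5.93 gigabases per library, and a coverage of 1 read per base was worth between 2.13 and 2.75 rescaled TPM for wild type libraries, between 3.15 and 6.60 for clone 1 and between 0.538 and 0.873 for clone 2. A low level is thus seen less readily in wild type and clone 1, and a value of 0 there is not evidence of absence. In the clone 1 library with MyoD that is replicate 1, 37.2% of the TPM lay in transcripts assigned to no gene, the highest share of any library. Myod1 was 0 to 41.1 rescaled TPM in the libraries without the virus, and reached 16651 to 30726 with it in wild type and clone 1, against 1503 to 1738 for clone 2. A 2-exon transcript at the LncMyoD locus (chromosome 7, 46345772 to 46351188, mm10, minus strand) was assembled in 12 of 12 plasmid libraries. With these ends it was in 0 of 12 others, wild type included, so the knockout itself could not be checked. Unnamed minus-strand transcripts with other ends lay over the locus in 2 libraries with MyoD and no plasmid. They were 6.91 rescaled TPM in clone 1, replicate 1 (2 exons, 46344918 to 46346828), and 3.15 in clone 2, replicate 2 (1 exon, 46346902 to 46347339). At least 11 of 13 fibroblast markers stood at 1 rescaled TPM or more in every library of each line. Of 10 muscle markers, 9 in wild type, 7 in clone 1 and 6 in clone 2 were at 0 without MyoD, and with MyoD their summed level was 544 to 694, 256 to 528 and 751 to 1429.

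The Hox RNA of all 3 lines came almost entirely from the HoxA cluster (chromosome 6, mm10). HoxA held a median of 99.6% of the summed Hox TPM of a library in wild type, 99.3% in clone 1 and 100.0% in clone 2, with lowest values of 84.4%, 62.9% and 94.9%. Of its 11 genes, 9 were above 0 in at least 10 of the 24 libraries each. The 2 at the posterior end, Hoxa11 and Hoxa13, which act in distal limb and reproductive tract, were listed at 0 in all 24. Of the 28 genes in HoxB, HoxC and HoxD, 21 were at 0 in every library. The plot of Hox genes by library shows this division between the clusters.

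**Figure D1:**
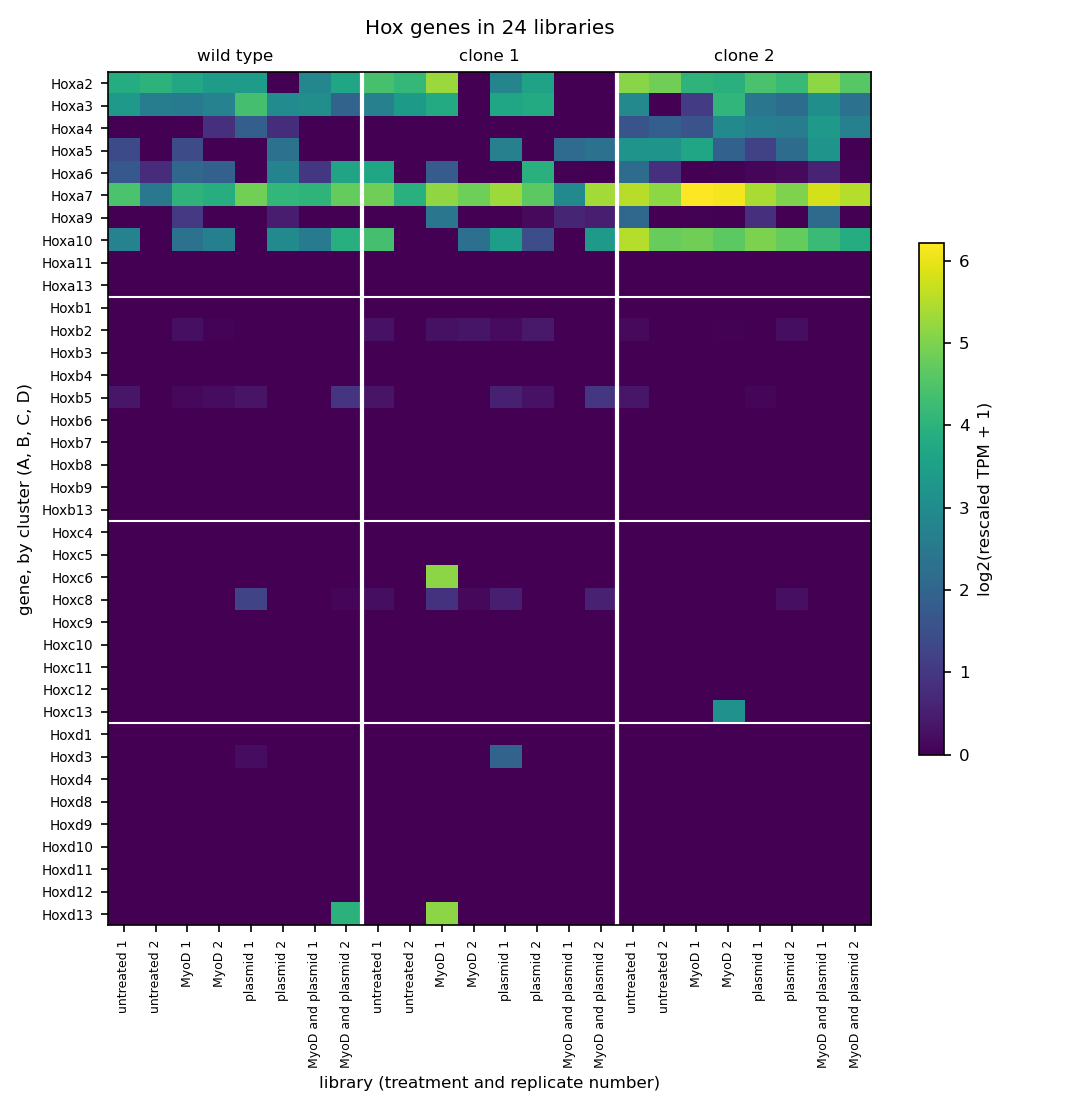
Each row is a Hox gene, ordered by cluster and paralog number, each column is 1 of the 24 libraries, and colour gives log2(rescaled TPM + 1). The filled rows lie in HoxA, up to Hoxa10, in every line, and outside HoxA only single cells and faint traces stand above 0.

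The 7 genes above 0 outside HoxA were traces or single libraries. Hoxb2 never passed 0.336 rescaled TPM, Hoxb5 0.977 and Hoxc8 1.40, and Hoxd3 was above 0 in 2 libraries with a highest value of 2.92. The others, Hoxc6, Hoxd13 and Hoxc13, genes of posterior or trunk identity, each rested on unnamed single-gene assemblies. In clone 1 with MyoD, replicate 1, Hoxc6 was 34.3 from 1 transcript of 838 nt at 5.20 reads per base, and Hoxd13 was 34.5 from 1 of 2191 nt at 5.23 reads per base. Hoxd13 was also 14.8 in wild type with MyoD and plasmid, replicate 2, from 1 transcript of 952 nt at 5.86 reads per base. Hoxc13 was 7.91 in clone 2 with MyoD, replicate 2, from 1 transcript of 804 nt at 13.6 reads per base. In each case the other library of the same group was at 0. Over the whole HoxB span 0 to 6 transcripts of any kind were assembled per library, against 9 to 32 over HoxA. Their summed level reached 74.8 rescaled TPM in 1 clone 1 library, almost all of it in unnamed transcripts that did not share enough exon length with a Hox gene to be counted to it. The longest exact run that any HoxA transcript shared with a gene of another cluster was 52 nt, in Hoxa6 with Hoxb4, against reads of 100 nt.

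Within HoxA the highest gene in each line was Hoxa7, a trunk gene of the middle of the cluster. Its lowest, median and highest values were 4.59, 16.0 and 28.5 rescaled TPM in wild type, 6.74, 28.0 and 39.9 in clone 1, and 31.2, 45.2 and 73.5 in clone 2 (8 libraries each). The order below it differed between lines. In wild type the hindbrain gene Hoxa2 was at 9.82 ± 4.81 (mean ± SD, n = 8), above Hoxa3 at 7.78 ± 5.26 and Hoxa10 at 5.15 ± 4.49. Clone 1 had these genes in the same order, with Hoxa2 at 11.5 ± 13.2, Hoxa3 at 6.61 ± 5.97 and Hoxa10 at 5.58 ± 7.07. In clone 2 Hoxa10, the most posterior HoxA gene detected, came next at 26.4 ± 9.36, followed by Hoxa2 at 23.6 ± 8.07, Hoxa5 at 5.52 ± 4.11 and Hoxa3 at 5.44 ± 5.001. Below Hoxa7, these neighbours in the order of wild type and clone 1 lay within 1 SD of each other, and so did the Hoxa10 and Hoxa2 values of clone 2. Hoxa9, another posterior gene, was at or below 4.39 in every library. The TPM of Hoxa6 was low in most libraries and higher in a few. Its median and highest values were 2.55 and 11.4 in wild type, 0.0106 and 14.5 in clone 1, and 0.0866 and 3.58 in clone 2. Deposited coverage over the Hoxa6 exons, from any transcript on either strand, had medians of 4.27, 1.44 and 5.60 reads per base. The low TPM may thus depend on how reads were split between overlapping models, which was not tested.

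Grouped by position, the anterior genes (paralog groups 1 to 3) made up a median of 53.5% of the Hox TPM in wild type (29.7 to 86.7%), 43.5% in clone 1 (0 to 72.3%) and 29.4% in clone 2 (14.6 to 34.0%). The posterior genes (groups 9 to 13) made up 9.83% (0 to 28.6%), 9.17% (0 to 20.6%) and 22.8% (13.8 to 31.1%). Ranges of the lines overlapped for both measures, and these shares were given no test. When each gene was measured as coverage of its exons, the anterior medians drew closer, to 39.8%, 38.1% and 30.9%, and the posterior medians were 4.69%, 5.32% and 13.3%. The summed Hox level was 40.2, 53.4 and 102 rescaled TPM (lowest, median, highest) in wild type, 24.1, 75.0 and 188 in clone 1, and 90.9, 123 and 155 in clone 2. Isolated Hoxc6 and Hoxd13 assemblies enter these values. HoxC held 18.7% and HoxD 18.3% of the sum in the highest clone 1 library, and HoxD 14.6% in the highest wild type library. The same libraries gave the highest posterior shares of their lines, 20.6% and 28.6%. The plot of the make-up of the Hox RNA shows these shares library by library.

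**Figure D2:**
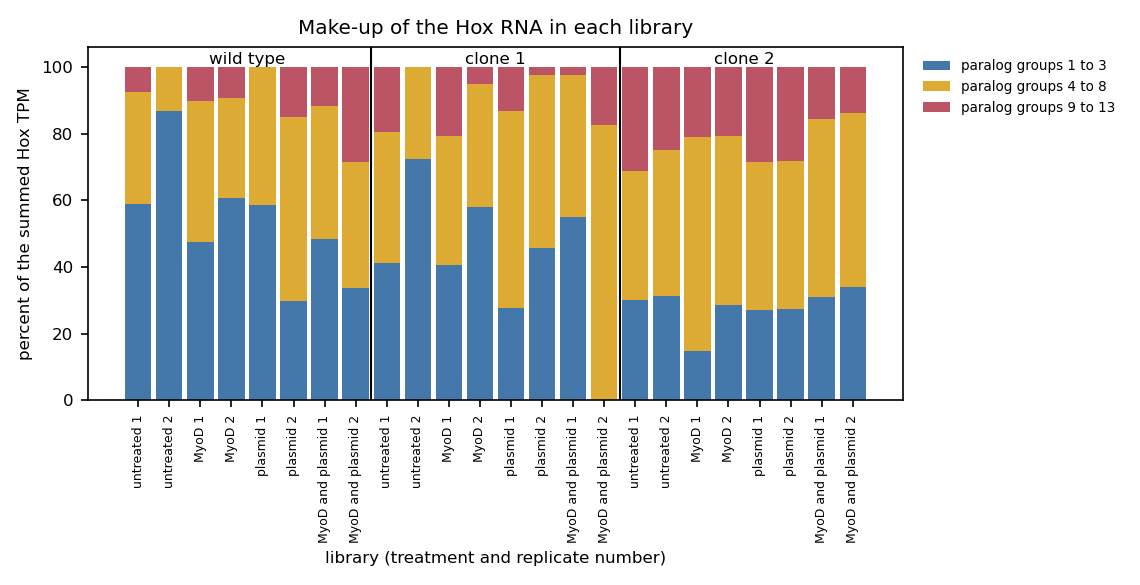
Stacked bars give the percent of the summed Hox TPM taken by paralog groups 1 to 3, 4 to 8 and 9 to 13 over all clusters, 1 bar per library. Groups 9 to 13 hold 13.8 to 31.1% in the 8 clone 2 libraries, and groups 1 to 3 range from 0 to 72.3% within clone 1.

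To ask whether positional identity differed between the lines, each pair of lines was compared over all 4 treatments, 8 libraries against 8, with limma across 28965 genes. A gene was called at an adjusted p (Benjamini-Hochberg over all genes) below 0.05 and a change of at least 1 on the log2(rescaled TPM + 1) scale. This scale understates the change of low genes. Only 10 of the 39 Hox genes passed the filter of 1 rescaled TPM in 2 libraries: the 9 HoxA genes with signal, and Hoxd13 through its 2 isolated values.

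Clone 2 carried more RNA from 4 HoxA genes than wild type: Hoxa4, Hoxa5, Hoxa7 and Hoxa10. None was called lower, and over all genes tested 19.8% were called higher, 11.2% lower and 31.0% in either direction, so calls in this pair of lines are common. The median change was 0.94 over the 10 tested Hox genes and -0.00 over all genes. Hoxa10 was 0, 5.15 and 14.3 rescaled TPM (lowest, median, highest) in wild type and 13.4, 25.9 and 44.9 in clone 2, where 1 wild type library reached into the clone 2 range. Its change was 2.55 ± 0.71 (SE) on the log2 scale, with limma's adjusted p = 0.00925. For Hoxa7 the highest wild type library lay below the lowest of clone 2 (28.5 against 31.2), and the change was 1.52 ± 0.35 (limma adjusted p = 0.00201). Hoxa4, a gene of the cervical region, was at 0 in 5 of 8 wild type libraries with a highest value of 2.71, and was 2.04, 5.29 and 9.20 in clone 2. Its change was 1.98 ± 0.29 (limma adjusted p = 3.24e-05), although these levels are near what 1 read per base is worth in wild type. Hoxa4 entered the test through clone 2: of the 9 libraries at 1 rescaled TPM or more, 8 were of clone 2 and 1 of wild type, so a gene at this level had to differ to be tested.

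Hoxa5, a regulator of lung and cervicothoracic patterning, was the least firm of the 4 calls. It was 0 in 5 of 8 wild type libraries with a highest value of 3.98, and 0, 5.94 and 11.5 in clone 2, so the groups overlapped. The change was 1.69 ± 0.55 (limma adjusted p = 0.0242). The call was lost, with adjusted p of 0.0590 to 0.0722, when any 1 of 6 libraries was left out: in wild type untreated replicate 2, MyoD replicate 2 or plasmid replicate 1, and in clone 2 MyoD replicate 1, plasmid replicate 2 or MyoD and plasmid replicate 1. Measured over the Hoxa5 exons, deposited coverage was 0 to 34.0 reads per base in clone 2 and 0 to 2.36 in wild type. This coverage is not rescaled and takes in any transcript over those exons, on either strand. A coverage of 1 read per base was worth 0.538 to 0.873 rescaled TPM in clone 2 and 2.13 to 2.75 in wild type. The coverage ranges of the lines are therefore not on one scale. Hoxa2 was higher in clone 2 without passing (1.42 ± 0.60, limma adjusted p = 0.0808). Hoxa6 was lower in clone 2 by a similar size, also without passing (-1.24 ± 0.67, limma adjusted p = 0.182).

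Clone 2 also had more Hoxa2, Hoxa4, Hoxa5 and Hoxa10 RNA than clone 1, with 4 genes called higher and 0 lower. Over all genes 21.2% were called higher, 14.8% lower and 36.0% in either direction. Hoxa10 was 0, 2.77 and 19.9 rescaled TPM in clone 1, against 13.4, 25.9 and 44.9 in clone 2, and its change was 2.84 ± 0.71 (limma adjusted p = 0.00392). Hoxa2, the Hox gene expressed farthest forward in the hindbrain, was 0, 8.58 and 37.8 in clone 1 and 14.5, 22.1 and 35.1 in clone 2, so that clone 1 spread on both sides of the clone 2 range. Its change was 2.02 ± 0.60 (limma adjusted p = 0.0124). Hoxa4 was listed at 0 in all 8 clone 1 libraries, so no fold is given. It passed the filter through clone 2 without any clone 1 library, so a gene at this level had to differ to be tested. The call (limma adjusted p = 3.25e-06) is therefore no independent support, and 1 read per base is worth 3.15 to 6.60 rescaled TPM in clone 1. Hoxa5 passed narrowly (1.43 ± 0.55, limma adjusted p = 0.0481) and was lost in 13 of the 16 fits without 1 library, with adjusted p of 0.0543 to 0.134. Only the fits without clone 1 plasmid replicate 1, clone 2 MyoD replicate 2 or clone 2 MyoD and plasmid replicate 2 kept it. Hoxa7 was 0.97 ± 0.35 higher (limma adjusted p = 0.0328) and missed the size of 1.

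**Figure D3:**
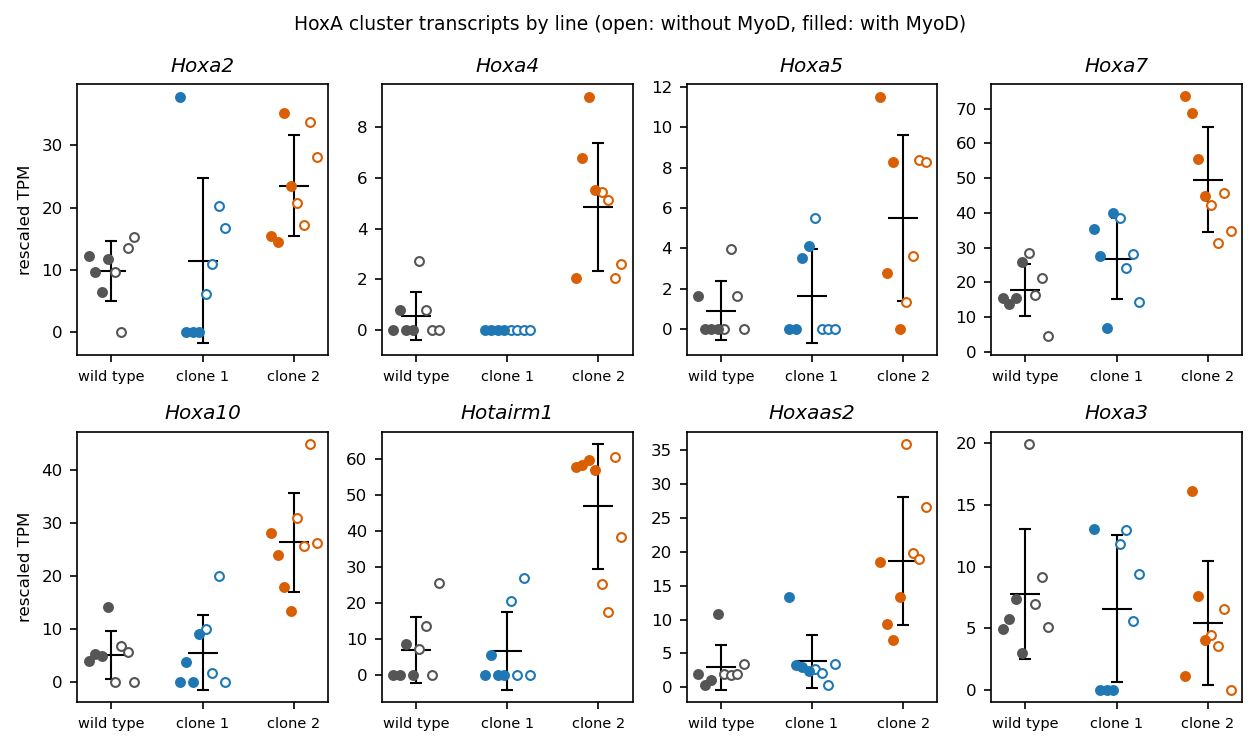
Points give rescaled TPM per library for 6 HoxA genes and 2 noncoding RNAs of the cluster in the 3 lines, open without and filled with MyoD, and bars give the mean and SD of 8 libraries. Hoxa7 of clone 2 (31.2 to 73.5) does not overlap wild type, Hoxa4 is at 0 in all 8 clone 1 libraries, and Hoxa3 overlaps between all 3 lines.

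The line calls depended on which libraries and transcripts were counted. In the fit without the plasmid groups, lines were compared in untreated cells only, 2 libraries against 2. There 0 Hox genes were called in clone 2 against wild type and 1 (Hoxa5) against clone 1. Hoxa10 was at 3.77 and 2.95 (limma adjusted p = 0.105 and 0.199). Counting only transcripts that carry a reference name left 1 call (Hoxa5) and 0. Such transcripts held 68.3% of the Hox TPM in wild type, 54.1% in clone 1 and 79.0% in clone 2. Clone 2 differed from the other lines in ribosomal share and in the depth of messenger RNA as given above, and the part of these in the Hox calls was not tested.

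The named Hoxa10 transcripts of the 3 lines came mostly from 1 of its starts. The coding transcript of 1436 nt that starts at the outer start, 52240854, was assembled in 7 of 8 clone 2 libraries with a mean of 15.6 rescaled TPM, and in 5 of 8 each in wild type and clone 1 with means of 4.65 and 2.61. The coding transcript of 2565 nt from the inner start, 52234939, was seen in 5 clone 2 libraries (mean 2.39), in 1 of clone 1 (0.344) and in no wild type library. Of the named Hoxa7 transcripts, 1 coding model of 2009 nt (52214498 to 52217505) was assembled in 8 wild type, 6 clone 1 and 8 clone 2 libraries, with means of 17.7, 18.4 and 45.4. Named Hoxa9 transcripts were a retained-intron model of 2286 nt in wild type and clone 1 (means 0.179 and 0.688), and the coding Hoxa9 transcript of 3226 nt was assembled only in 3 clone 2 libraries (mean 0.229). These shares depend on how reads were split between overlapping models.

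The 250 bases before the starts of some genes called in clone 2 are shown: Hoxa2, Hoxa5 and both starts of Hoxa10. Those of Hoxa11, the silent neighbour of Hoxa10, stand beside them, so that active and silent starts of 1 cluster can be compared. All are from RefSeq on GRCm38.p6 (mm10), minus strand, 5′ to 3′, and end at the base before the start. Capitals mark CAGCTG (an E-box that MyoD is known to bind), TGATTNAT (a Pbx-Hox type site) and TATAAA, each searched on both strands, with N any base.
Hoxa2, chr6:52164832-52165081: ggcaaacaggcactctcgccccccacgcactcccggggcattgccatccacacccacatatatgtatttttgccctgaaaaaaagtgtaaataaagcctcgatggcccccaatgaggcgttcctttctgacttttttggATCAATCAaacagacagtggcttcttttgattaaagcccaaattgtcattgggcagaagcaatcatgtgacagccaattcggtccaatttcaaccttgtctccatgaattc
Hoxa5, chr6:52204588-52204837: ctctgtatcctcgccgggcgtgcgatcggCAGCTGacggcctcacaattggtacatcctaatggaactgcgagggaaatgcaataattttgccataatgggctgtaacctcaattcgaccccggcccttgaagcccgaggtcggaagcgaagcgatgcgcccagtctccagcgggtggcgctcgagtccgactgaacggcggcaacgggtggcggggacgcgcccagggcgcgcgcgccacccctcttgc
Hoxa10 inner start, chr6:52234940-52235189: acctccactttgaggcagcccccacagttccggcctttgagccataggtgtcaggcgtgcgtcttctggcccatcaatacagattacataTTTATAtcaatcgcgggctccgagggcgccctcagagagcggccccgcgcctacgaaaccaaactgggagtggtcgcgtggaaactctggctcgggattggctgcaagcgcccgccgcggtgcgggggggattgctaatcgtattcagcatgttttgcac
Hoxa10 outer start, chr6:52240855-52241104: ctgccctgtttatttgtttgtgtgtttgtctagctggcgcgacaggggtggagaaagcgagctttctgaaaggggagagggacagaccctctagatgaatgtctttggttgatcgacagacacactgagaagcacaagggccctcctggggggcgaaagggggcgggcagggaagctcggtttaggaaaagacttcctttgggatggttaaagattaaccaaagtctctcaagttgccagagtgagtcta
Hoxa11, chr6:52245811-52246060: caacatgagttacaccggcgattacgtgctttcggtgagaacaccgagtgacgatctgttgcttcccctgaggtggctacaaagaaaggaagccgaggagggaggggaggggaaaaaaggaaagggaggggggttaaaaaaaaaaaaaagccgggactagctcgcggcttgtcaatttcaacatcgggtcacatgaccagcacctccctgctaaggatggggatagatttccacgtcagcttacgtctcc

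CAGCTG occurs in the Hoxa5 window and in 3 of the 24 windows found for 22 Hox genes, against 4271 of 32851 windows of all genes. TGATTNAT occurs in the Hoxa2 window and in 2 of 24, against 2.82%, and TATAAA in the Hoxa10 inner window and in 4 of 24, against 12.4%. The CpG counts in 250 bases are 6 for Hoxa2, 28 for Hoxa5, 20 and 7 for the inner and outer Hoxa10 starts and 13 for Hoxa11, beside a median of 6 over all genes. None of the 3 motifs is found in the outer Hoxa10 window, the start with most of the named Hoxa10 RNA, nor in that of Hoxa11. Of the other genes called in clone 2, Hoxa7 has a window (52218574 to 52218823) that is not shown, with 7 CpG and none of the 3 motifs. It lies before another start than that of the 2009 nt Hoxa7 model (52217505), which held most of the named Hoxa7 RNA. No window was found for that start. No window was found for Hoxa4. A match here is a description of letters, not of binding.

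No Hox gene was called between clone 1 and wild type. In clone 1 against wild type limma called 0 of the 10 tested Hox genes, with 0 also at an unadjusted p below 0.05, while 2.36% of all genes were called higher, 2.47% lower and 4.83% in either direction. The largest change in size was that of Hoxa3, a gene of hindbrain and pharyngeal arches, at -0.79 ± 0.59 (limma adjusted p = 0.459). Hoxa7 was 0.55 ± 0.35 higher in clone 1 (limma adjusted p = 0.361). The libraries of both lines overlapped for every gene.

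Noncoding RNAs among the anterior HoxA genes were also higher in clone 2. Of 17 listed RNAs of the Hox clusters 16 were in the annotation and 4 were tested, and 2 were called higher in clone 2 against either line, where 19.8% (wild type) and 21.2% (clone 1) of all genes were. Hotairm1 (chromosome 6, 52156902 to 52162119, plus strand, ending before Hoxa2), a noncoding RNA known to regulate 3′ HoxA genes, was 0, 3.601 and 25.6 rescaled TPM in wild type, 0, 0 and 26.8 in clone 1 and 17.6, 57.3 and 60.6 in clone 2. Its change was 3.61 ± 0.84 against wild type (limma adjusted p = 0.00242) and 3.97 ± 0.84 against clone 1 (limma adjusted p = 0.00101). Hoxaas2 (52165674 to 52169564, plus strand), an antisense RNA that starts beyond Hoxa2 and reaches the end of Hoxa3, was 0.286, 1.94 and 10.9 in wild type, 0.365, 2.87 and 13.3 in clone 1 and 6.98, 18.7 and 35.9 in clone 2. Its changes were 2.48 ± 0.44 and 2.17 ± 0.44 (limma adjusted p = 0.000204 and 0.000665). Hoxaas3, Hotair of HoxC, and Hottip and Hoxa11os at the posterior end of HoxA were at 0 in most or all libraries: the last 3 were at 0 in all 24. The library kit does not mark strand, so reads of Hotairm1 and of models that overlap it on the other strand cannot be told apart where they share sequence.

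No Hox gene was called with MyoD adenovirus in any line. With 4 libraries against 4 in each line, limma called 0 of the 10 tested Hox genes in wild type, clone 1 and clone 2. Over all genes 0.235% were called higher, 0.0345% lower and 0.269% in either direction in wild type, 0.784%, 0.704% and 1.49% in clone 1, and 0.628%, 2.39% and 3.02% in clone 2. In the same order of lines, 0, 2 and 0 Hox genes had an unadjusted p below 0.05. The median Hox change was 0.17, -0.05 and -0.20, beside 0, 0 and -0.07 over all genes. In the same fits 6, 4 and 9 of the 10 muscle markers were called higher.

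Hoxa7 was measured in all 24 libraries. Without MyoD it was 21.1 and 4.59 (untreated) and 28.5 and 16.4 (plasmid) in wild type; with MyoD it was 15.6 and 13.6, and 15.52 and 26.0 with the plasmid as well. Its change in wild type was 0.19 (95% interval -0.85 to 1.23), in clone 1 -0.11 (-1.14 to 0.93) and in clone 2 0.63 (-0.41 to 1.67). In clone 2 it was 45.6, 34.8, 42.4 and 31.2 without MyoD and 73.5, 68.6, 55.5 and 44.8 with it, so that only the lowest with MyoD fell within the range without (limma adjusted p = 0.863). Hoxa10 was 5.75, 0, 0 and 6.89 in wild type without MyoD and 3.97, 5.39, 4.90 and 14.3 with it. Its interval ran from -0.70 to 3.58 there, from -3.07 to 1.21 in clone 1 and from -2.74 to 1.53 in clone 2, so a rise of several fold in wild type, or a fall of several fold in either clone, lies within the interval.

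Hoxa2 and Hoxa3 in clone 1 came closest to a change. Hoxa2 was 20.3, 16.7, 6.15 and 11.01 rescaled TPM without MyoD and 37.8, 0, 0 and 0 with it, and Hoxa3 was 5.58, 9.40, 11.9 and 12.95 without and 13.1, 0, 0 and 0 with it. The 1 library with MyoD above 0, replicate 1 without plasmid, was the highest of all 8 for both genes. The changes were -2.43 ± 0.85 for Hoxa2 (limma adjusted p = 0.201) and -2.44 ± 0.84 for Hoxa3 (limma adjusted p = 0.186). Without that library both were called lower, at -3.75 ± 0.62 (limma adjusted p = 0.00392) and -3.40 ± 0.79 (limma adjusted p = 0.0284). Without the other library of the same group they were -1.11 and -1.49 (limma adjusted p = 0.353 and 0.324), and Hoxd13 was called higher through its single value (2.57 ± 0.62, limma adjusted p = 0.0188). Coverage of Hoxa2 in clone 1 was at most 5.73 reads per base, so 0 and a low level are hard to separate. Hoxa3 was covered less: 0.382 to 1.10 reads per base over its exons without MyoD and 0.0425 to 0.633 with it. This coverage takes in any transcript over those exons, and it was above 0 also where Hoxa3 was listed at 0. The Hoxa3 values of clone 1 thus lie near or below the limit of about 1 read per base. In wild type Hoxa2 was 13.5, 15.3, 9.59 and 0 without MyoD and 12.2, 9.69, 6.40 and 11.8 with it, and in clone 2 33.7, 28.2, 20.7 and 17.2 without and 15.4, 14.5, 35.1 and 23.5 with it. These groups overlapped.

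The response to MyoD was also compared between lines. Limma called 0 Hox genes in clone 1 minus wild type, where 0.135% of all genes were called higher, 0.183% lower and 0.318% in either direction, and 1 Hox gene (Hoxa2) had an unadjusted p below 0.05, and 0 in clone 2 minus wild type, where the shares were 0.221%, 0.894% and 1.12% and 0 Hox genes were below 0.05 unadjusted. For Hoxa2 the difference of responses was -3.03 ± 1.20 in clone 1 (limma adjusted p = 0.458), and without clone 1 MyoD replicate 1 it was -4.35 ± 0.83 (limma adjusted p = 0.0288). Wild type serves both comparisons. Summed Hox levels overlapped with and without MyoD. Wild type libraries held 40.2 to 79.6 rescaled TPM without and 41.5 to 102 with it, those of clone 1 51.8 to 103 and 24.1 to 188, and those of clone 2 90.9 to 155 and 96.6 to 154. The highest values with MyoD in wild type and clone 1 include the isolated Hoxd13 assemblies, and in clone 1 that of Hoxc6.

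**Figure D4:**
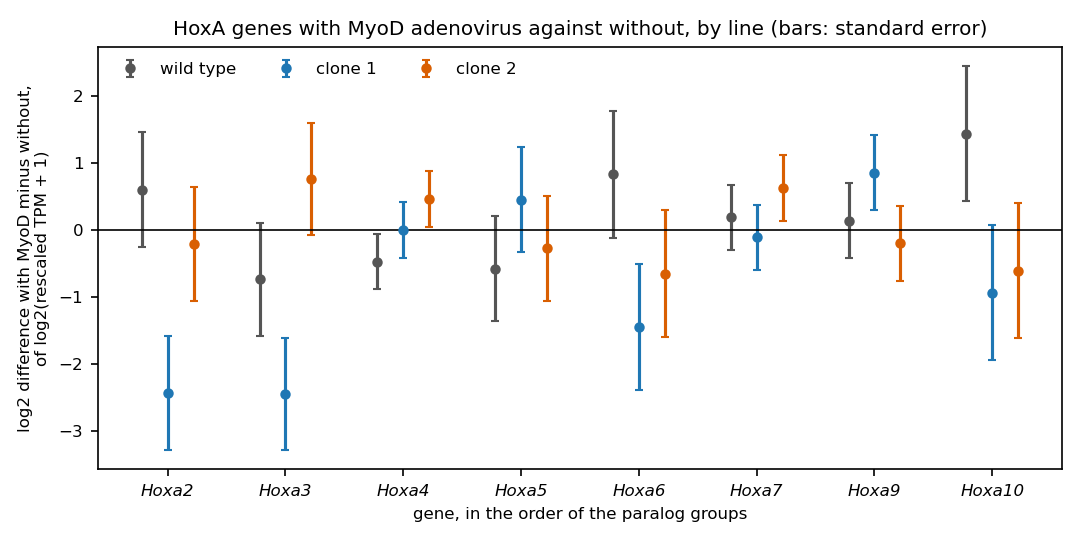
Points give the fitted difference of log2(rescaled TPM + 1) with MyoD minus without for HoxA genes in 3 lines, and bars the standard error. The bars of most points cross 0, and the 2 points farthest from it are Hoxa2 (-2.43) and Hoxa3 (-2.44) in clone 1, neither of which was called.

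The LncMyoD plasmid was tested over all lines, 12 libraries against 12. Limma called 0 of the 10 Hox genes, beside 0.0173% of all genes higher, 0.00690% lower and 0.0242% in either direction, and 1 had an unadjusted p below 0.05. The log2 change of Hoxa7, with means of 30.8 rescaled TPM with the plasmid and 31.9 without, was 0.09 ± 0.28 (95% interval -0.51 to 0.69, limma adjusted p = 0.989), and that of Hoxa10, with means of 11.2 and 13.5, was 0.11 ± 0.58 (-1.12 to 1.35, limma adjusted p = 0.996). For both genes the arithmetic means and the log2 change differ in sign, and the groups overlapped.

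The TALE partners of Hox proteins were called in both directions in clone 2. All 9 TALE genes listed were tested; in clone 2 against wild type 1 was called higher and 2 lower (median change -0.92, against -0.00 over all genes), and against clone 1 2 were higher and 3 lower. Over all genes 31.0% and 36.0% were called in these comparisons, so the count against wild type is near that background. Meis2, a partner of Pbx and Hox proteins, was 9.88, 20.4 and 49.3 rescaled TPM in wild type, 6.91, 31.6 and 86.7 in clone 1 and 45.6, 66.3 and 91.9 in clone 2 (1.75 ± 0.42 against wild type, limma adjusted p = 0.00307). Pbx2 was 21.7, 32.0 and 38.96 in wild type and 4.96, 6.86 and 12.1 in clone 2, with no overlap (-1.95 ± 0.23, limma adjusted p = 2.85e-06). Pbx4 was 7.36, 23.4 and 47.0 in clone 1 and 0, 1.81 and 7.93 in clone 2 (-3.27 ± 0.70, limma adjusted p = 0.00106). In clone 1 against wild type, with MyoD in each line and with the plasmid, 0 of 9 were called, beside at most 4.83% of all genes in any of these.

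Chromatin regulators of the Hox clusters were called in both directions in clone 2. Of 25 listed genes, all tested, 10 were higher and 6 lower in clone 2 against wild type and 9 higher and 4 lower against clone 1, and 0 higher and 3 lower in clone 1 against wild type. Over all genes 31.0%, 36.0% and 4.83% were called in these comparisons. Pcgf2, a Polycomb subunit known to repress posterior Hox genes, was 201, 379 and 438 rescaled TPM in wild type, 136, 169 and 207 in clone 1 and 7.08, 12.7 and 19.6 in clone 2. Its change was -4.65 ± 0.17 in clone 2 (limma adjusted p = 6.65e-13) and -1.06 ± 0.17 in clone 1 (limma adjusted p = 0.000788), both against wild type. Phc1, another Polycomb subunit, was 70.6, 95.7 and 152 in wild type and 5.52, 11.5 and 19.5 in clone 2 (-3.10 ± 0.21, limma adjusted p = 2.12e-09). Cbx8, a Polycomb reader of histone methylation, was 0, 0.564 and 4.86 in wild type and 4.23, 9.54 and 14.8 in clone 2 (2.40 ± 0.37, limma adjusted p = 5.29e-05). In clone 1 the largest change was that of Cbx2, at 11.1, 16.9 and 24.3 in wild type and 0, 0 and 9.55 in clone 1 (-3.11 ± 0.53, limma adjusted p = 0.00166).

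Genes linked to Hox induction, enzymes that degrade retinoic acid among them, and genes that flank the clusters were counted in the same way. Of 15 listed for induction, 6 were tested. In clone 1 against wild type 1 was called higher and 1 lower, beside 4.83% of all genes. In clone 2, 0 were higher and 1 lower against wild type, and 1 higher and 2 lower against clone 1, beside 31.0% and 36.0%. Rarg was higher in clone 2 than in clone 1 (1.40 ± 0.17, limma adjusted p = 4.35e-06). The retinoic acid receptor Rara was lower in both clones. Its lowest, median and highest values were 599, 678 and 774 rescaled TPM for wild type, 205, 249 and 367 for clone 1 and 21.98, 27.5 and 32.5 for clone 2, with no overlap between lines (-1.35 ± 0.11 and -4.61 ± 0.11, limma adjusted p = 9.49e-07 and 5.75e-15). Cyp26b1, which degrades retinoic acid, was 0, 6.40 and 7.80 in wild type, 27.0, 35.0 and 185 in clone 1 and 0, 5.01 and 10.2 in clone 2, and was called higher in clone 1 (3.24 ± 0.53, limma adjusted p = 0.001). Of 8 tested neighbours of the clusters, 3 were higher and 2 lower in clone 2 against wild type, beside 19.8% and 11.2% of all genes. Calcoco1, a transcriptional coactivator gene, had the largest change and was lower, at 1490, 1582 and 1703 in wild type and 102, 126 and 158 in clone 2 (-3.62 ± 0.10, limma adjusted p = 4.93e-14). Hibadh, a mitochondrial enzyme of valine breakdown whose gene flanks HoxA, was 15.7, 25.2 and 31.9 in wild type and 92.4, 110 and 170 in clone 2 (2.25 ± 0.34, limma adjusted p = 4.15e-05). Evx1 and Evx2, the homeobox genes at the posterior ends of HoxA and HoxD, were at 0 in all 24 libraries.

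Other transcription factors of body position and limb were called in clone 2 in both directions. Of 47 listed, 30 were tested; 8 were higher and 3 lower in clone 2 against wild type, 10 higher and 4 lower against clone 1, and 1 higher and 3 lower in clone 1 against wild type. Over all genes 31.0%, 36.0% and 4.83% were called, so the count against wild type is near that background. Shox2, a proximal limb regulator, was 0, 3.998 and 8.02 rescaled TPM in wild type, 0 in all 8 libraries of clone 1 and 22.6, 27.9 and 44.5 in clone 2 (3.05 ± 0.41 against wild type, limma adjusted p = 1.02e-05). Otx1, a head gene, was 69.3, 93.3 and 127 in wild type, 33.3, 55.0 and 59.2 in clone 1 and 1.70, 4.83 and 10.2 in clone 2 (-4.02 ± 0.20, limma adjusted p = 5.32e-11). Prrx2, a limb mesenchyme regulator, was 0.663, 5.59 and 16.5 in wild type and 10.7, 32.3 and 57.6 in clone 2 (2.65 ± 0.57, limma adjusted p = 0.00134). Prrx1, on the same list, went the other way, with a mean of 1286 in wild type and 230 in clone 2 (-2.48 ± 0.08, limma adjusted p = 1.71e-13). With MyoD 2 of the 30 were called, both in clone 2, where 3.02% of all genes were: Otx1 rose from a mean of 3.17 to 7.96 (1.12 ± 0.29, limma adjusted p = 0.0367) and Tbx3 fell from 19.2 to 6.19 (-1.60 ± 0.43, limma adjusted p = 0.0496), Tbx3 being named after its values were seen. Markers of fibroblasts differed between lines as well, 7 of 13 higher and 3 lower in clone 2 against wild type, and their part in the Hox differences was not tested. Without MyoD the summed level of the 13 was 5261 to 5578 rescaled TPM for wild type libraries, 3645 to 4135 for clone 1 and 21962 to 24995 for clone 2; with MyoD it was 4831 to 5505, 3023 to 4362 and 10597 to 13296. Endothelial Cdh5, epithelial Epcam, Krt5 and Krt14 and macrophage Adgre1 were at 0 in all libraries. Of the other markers of these types, 1 of 4 tested for macrophages was called, Cd14, higher in clone 2 than in wild type (means 41.3 and 4.30 rescaled TPM, 3.10 ± 0.40, limma adjusted p = 7.32e-06) and in clone 1, at a mean of 13.4, between them and called against both. Of 5 neuron markers tested, Map2 and Syt1 were lower in clone 2 than in wild type (-1.22 ± 0.20 and -1.28 ± 0.46, limma adjusted p = 8.7e-05 and 0.0373), and 0 of 2 epithelial and 0 of 2 endothelial markers tested were called between lines. Their part in the Hox differences was not tested either.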

How the data were processed

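The authors' deposited files list the transcripts assembled in each of 24 libraries, with coverage in reads per base, FPKM and TPM per transcript, per the file headers made with StringTie 2.1.2 and the GENCODE vM21 annotation as guide. Per the submitters' processing notes the build was mm10, the aligner HISAT2 2.1.0 and the assembler StringTie 1.3.3, with Trimmomatic 0.36, SAMtools 1.3 and bcl2fastq 2.19 also listed; the 2 StringTie versions differ. The read count behind a value is not given, so no counting interval is printed; depth is coverage divided by FPKM.

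TPM was summed per gene over transcripts with its reference name and unnamed transcripts sharing at least 50% of their exonic length with it, on the same strand or, where the assembly has no strand, either. It was rescaled to one common total without 358 ribosomal genes (ribosomal RNA genes, those of a ribosomal repeat on chromosome 17, and Lars2, which overlaps such sequence) and 37 mitochondrial genes. limma 3.58.1 (R 4.3.3) with a mean-variance trend was fitted to log2(rescaled TPM + 1) over all 12 group means, with 12 residual degrees of freedom, and tested on simulated data. Library means give mean ± SD; medians, ranges and promoter motifs were computed in Python 3.11.15.

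All Hox genes enter the counts, sums and shares; values are given for those called in a line or MyoD comparison and for the 5 highest in each line, and up to 4 called genes with large changes per other list; exceptions are marked where they stand, and some genes are not reported here. Genes, lists and tests were chosen with earlier results of these data known. Alternatives were other scalings, pseudocounts, filters, transcript sets, library sets and a replicate block.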

Additional observations from a re-analysis of the deposited data

How the results depend on the processing

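The Hox genes called numbered 4 in clone 2 against wild type and 4 against clone 1. They numbered 1 and 0 with reference-named transcripts only. Without the plasmid groups they numbered 0 and 1, where only untreated libraries were compared, 2 against 2. With a pseudocount of 10, chosen after seeing the data, they numbered 2 and 1. With only the 2 lines in the fit, clone 2 against wild type had 7 (5 higher and 2 lower, Hoxa6 among the latter); the cause was not tested. Deposited TPM without rescaling moved the median change of all genes in clone 2 against wild type from -0.00 to 1.26, where 5 Hox genes were called, and 6 against clone 1. Hoxa10 lost its call against wild type with a pseudocount of 0.1 (adjusted p = 0.0558), and quantile normalization did not call Hoxa5 there. Leaving out each library gave 3 to 5 calls in either comparison, 0 to 2 for MyoD in clone 1 and 0 to 1 for the response of clone 1 minus wild type; the other 5 comparisons had 0 throughout. No log2 change of a called gene reversed under any setting. The share of paralog groups 9 to 13 averaged 10.1% in clone 1 and 23.0% in clone 2, and 7.29% and 14.4% by exon coverage. With reference-named transcripts only the means were 22.6% and 18.4%, so the order of the clone means reversed. The medians there kept the order, at 6.01% in clone 1 (0 to 91.0%) and 20.1% in clone 2 (1.45 to 35.5%). With the replicate number as a block the calls stayed at 4 and 4, and at 0 elsewhere; over 18 pairs of groups of a line, deviations of same-numbered libraries correlated between -0.03 and 0.02, none over 0.1, so the numbers were not taken to pair libraries. Depth limits levels under about 1 read per base, which is 2.13 rescaled TPM or more in wild type and 3.15 or more in clone 1.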
